A study of Mus musculus with 4 samples.

Results

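The piRNA pathway genes described here are 9 germline genes, Piwil1, Piwil2, Piwil4, Ddx4, Mov10l1, Pld6, Asz1, Mael and Gtsf1, with Mov10, a paralogue of Mov10l1 that somatic cells use, as a contrast. They make up 10 of the 37273 genes in the mouse annotation used. A gene was given a promoter peak when the midpoint of a KDM5C ChIP-Seq peak lay within 1 kb of any of its annotated transcription start sites (TSSs). In cells with intact Kdm5c (WT), 7 of the 9 germline genes had a promoter peak and Mov10 had none, so these promoters account for 7 of 6916 WT peaks. In cells lacking Kdm5c (KO), the 10 genes had 0 of 44 peaks.

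KDM5C (SMCX) is an X-linked demethylase of histone H3 methylated at lysine 4. The cells were male mouse embryonic stem cells of labelled strain C57BL/6J that had been differentiated toward epiblast-like cells (EpiLCs) and taken at day 2. The study's methods and reporting form name other strains, with a mixed background for the conditional Kdm5c allele, so the strain is not settled here. Both genotypes carry a truncated Tsix, the antisense repressor of Xist, on their single X chromosome (XΔTsixY), and the KO cells carry in addition a Kdm5c deletion that removes exons for the demethylase domain. Each genotype was represented by 1 immunoprecipitated sample and 1 input sample, which gave 1 peak list per genotype. The study's methods give replicates for WT and a single sample for KO, but its other descriptions differ on replication, so the number of libraries behind each list is not certain. The methods place day 2 after the EpiLC stage, whereas the labels describe EpiLCs, and the sources used here do not resolve the stage. With 1 list per genotype there was no replicate error and no test was made, and the lists hold no read counts, so the reads behind each peak cannot be given, although the study's reporting form states a minimum depth for every sample. The lists measure occupancy and not RNA, so the labelled cell type could not be checked against expressed markers.

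PIWI proteins are germline members of the Argonaute family. They carry short guide RNAs, the piRNAs, that are cut from long single-stranded precursors and that direct them to transcripts of transposable elements. Bound transcripts are sliced in germ granules beside mitochondria, and in the fetal male germ line the pathway also directs DNA methylation to transposon promoters. Most of these genes are active in germ cells and silent in somatic cells, and several have CpG-containing promoters that are methylated as the embryo leaves pluripotency. Known binding motifs at such promoters include the E-box (CACGTG), bound by dimers that contain MAX, the E2F site (TTCCCGC) and the T-box half-site (GGTGTGA). MAX, MGA and E2F6 belong to PRC1.6, a Polycomb repressor complex of germline genes.

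The 240 bases directly upstream of the most upstream TSS are printed for 5 genes with a WT peak, because each holds an E-box, and for the 2 germline genes with no peak, as a comparison. Each runs 5′ to 3′ on the strand of its gene in mm9 and ends 1 base before the TSS. Capitals mark the motifs found on either strand: CACGTG is an E-box, GCGGGAA is the E2F motif read from the opposite strand, and GGTGTGA is the T-box motif. The windows are chr13:113442519-113442758 (minus strand) for Ddx4, chr15:88813099-88813338 (plus strand) for Mov10l1, chr1:168168876-168169115 (minus strand) for Mael, chr11:59601148-59601387 (minus strand) for Pld6 and chr5:129241881-129242120 (plus strand) for Piwil1. Those without a peak are chr9:14545178-14545417 (minus strand) for Piwil4 and chr6:18059062-18059301 (minus strand) for Asz1.
Ddx4: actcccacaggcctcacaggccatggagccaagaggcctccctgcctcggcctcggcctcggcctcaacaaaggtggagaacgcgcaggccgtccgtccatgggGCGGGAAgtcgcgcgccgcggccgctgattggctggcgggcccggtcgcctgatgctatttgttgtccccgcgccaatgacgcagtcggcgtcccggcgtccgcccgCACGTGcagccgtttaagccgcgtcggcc
Mov10l1: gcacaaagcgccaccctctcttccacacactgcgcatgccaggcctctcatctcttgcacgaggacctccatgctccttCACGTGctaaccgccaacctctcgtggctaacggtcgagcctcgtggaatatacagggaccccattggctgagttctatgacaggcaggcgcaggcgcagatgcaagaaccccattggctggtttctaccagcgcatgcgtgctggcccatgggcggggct
Mael: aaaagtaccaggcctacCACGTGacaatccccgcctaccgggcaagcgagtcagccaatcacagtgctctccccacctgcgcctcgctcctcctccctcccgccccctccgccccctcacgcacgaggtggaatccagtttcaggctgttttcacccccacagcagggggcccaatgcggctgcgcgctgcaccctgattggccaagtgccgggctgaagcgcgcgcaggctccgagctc
Pld6: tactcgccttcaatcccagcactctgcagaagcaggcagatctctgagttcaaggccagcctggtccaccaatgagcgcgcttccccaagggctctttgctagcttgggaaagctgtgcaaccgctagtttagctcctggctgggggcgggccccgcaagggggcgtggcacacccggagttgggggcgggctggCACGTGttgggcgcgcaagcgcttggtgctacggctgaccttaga
Piwil1: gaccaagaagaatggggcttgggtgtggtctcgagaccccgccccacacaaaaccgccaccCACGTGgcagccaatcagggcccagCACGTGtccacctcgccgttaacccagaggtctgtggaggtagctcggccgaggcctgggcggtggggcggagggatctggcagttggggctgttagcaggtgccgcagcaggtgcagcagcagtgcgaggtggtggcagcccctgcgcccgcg
Piwil4: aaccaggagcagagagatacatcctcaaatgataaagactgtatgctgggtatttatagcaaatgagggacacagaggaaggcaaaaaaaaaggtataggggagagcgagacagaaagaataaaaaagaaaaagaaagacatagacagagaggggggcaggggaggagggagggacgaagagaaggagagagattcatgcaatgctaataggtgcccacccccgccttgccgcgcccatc
Asz1: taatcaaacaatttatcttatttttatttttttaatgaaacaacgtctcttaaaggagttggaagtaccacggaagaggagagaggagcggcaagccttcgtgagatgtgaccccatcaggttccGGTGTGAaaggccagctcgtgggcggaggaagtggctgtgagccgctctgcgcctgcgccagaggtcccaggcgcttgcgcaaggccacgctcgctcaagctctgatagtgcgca

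The number of CpG dinucleotides in these windows was 31 for Ddx4, 18 for Mael, 16 for Piwil1, 14 for Mov10l1 and 14 for Pld6. It was 15 for Asz1 and 5 for Piwil4, the 2 windows beside which no peak was called. Piwil1 is the window that holds a pair of E-boxes. The Asz1 window holds the single T-box motif of the set, and the Piwil4 window holds none of the 3 motifs. The remaining windows, of Piwil2, Gtsf1 and Mov10, also hold none of them.

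A promoter peak was present at 77.8% of the germline members (7 of 9) in WT, against 24.0% of all protein-coding genes (5358 of 22367). Peak strength is given as the deposited score, which is 10 times the −log10 of the q-value with decimals dropped, and as fold enrichment of immunoprecipitate over input. The 7 scores ran from 39 to 1455 around a median of 523. The score is on a log scale, so a ratio of scores is not a ratio of enrichment. Fold enrichment over the same peaks ran from 3.41 to 15.8. Over all protein-coding genes with a promoter peak the median score was 90, with quartiles of 53 and 177. The median fold enrichment was 7.05 for the members and 3.73 over the 5064 distinct WT promoter peaks of protein-coding genes. Of the 7 peaks, 4 lay in the top 10% of all WT scores, a class that held 11.6% of bound protein-coding genes, and 1 lay below the WT median score of 82. By score the members thus split into a strong set (Ddx4, Mov10l1, Mael and Piwil2), a set near the median of bound genes (Pld6 and Piwil1), a weak peak (Gtsf1) and genes with none (Piwil4, Asz1 and Mov10).

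**Figure D1:**
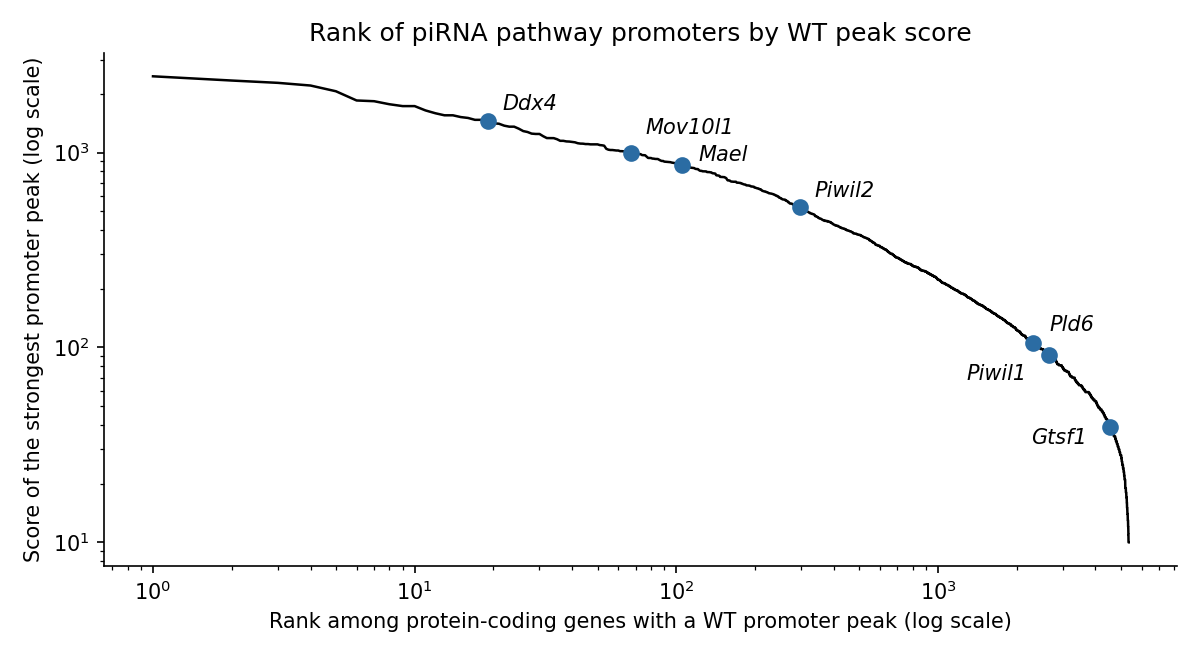
Score of the strongest WT promoter peak (vertical, log scale) against its rank among the 5358 protein-coding genes with such a peak (horizontal, log scale); the line is all genes and the points are the 7 piRNA pathway genes with a peak. Ddx4, Mov10l1, Mael and Piwil2 lie high on the curve at scores of 523 to 1455, and Pld6, Piwil1 and Gtsf1 lie at 39 to 105.

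The 3 PIWI genes differed from each other. Piwil2 encodes MILI, which acts in fetal and postnatal male germ cells, and had the strongest PIWI peak, at chr14:70828672-70829620. Its score was 523 and its fold enrichment 7.05, above 95.4% of WT peaks by score. The summit lay in intergenic sequence 219 bp upstream of the TSS, the largest distance among the members. By the same rule this peak, 949 bp wide, was also the promoter peak of a U11 small nuclear RNA gene, so the list cannot tell which of these genes it belongs to. Piwil1 encodes MIWI, which carries the piRNAs of meiotic and later male germ cells, and its peak at chr5:129241925-129242284 scored 91 at a fold enrichment of 4.88. That score is above 50.1% of bound protein-coding genes, so Piwil1 was a typical bound promoter by score. By fold enrichment its peak ranked higher, at 1709 of the 6916 WT peaks. Piwil4 encodes MIWI2, the nuclear PIWI protein that directs DNA methylation to transposons, and had no WT peak at any of its 4 TSSs. The nearest WT midpoint was 10696 bp away, in a peak of score 94 over the coding sequence of the neighbouring gene Fut4.

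Of the 7 peaks, those of the helicase genes were the strongest. Ddx4, the mouse VASA homologue and a DEAD-box RNA helicase of germ granules, was marked by a peak of score 1455 and 15.8-fold enrichment. This peak, at chr13:113441987-113442828, ranked 18 of the 6916 WT peaks by score and 17 by fold enrichment, and its summit lay 1 bp downstream of the TSS in the 5′ UTR. Mov10l1, the RNA helicase that binds piRNA precursors, was marked by a peak of score 994 and 14.7-fold enrichment at chr15:88812899-88813724, rank 66 by score. The summit was 89 bp upstream of the first TSS. Mov10l1 has 5 annotated TSSs, and those inside the gene, at positions 88841803, 88850851 and 88854043 of chromosome 15, had no peak. Mov10, the widely used paralogue that acts on microRNA targets and restricts retroelements, had no peak at its 4 TSSs. The WT midpoint nearest to a Mov10 TSS was 178413 bp away, in an intron of Slc16a1, with a score of 109. The paralogues therefore lay on opposite sides of the call in this list, which is a comparison of 1 pair without replicates.

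The genes for piRNA processing and for PIWI cofactors covered the whole range. Mael, which encodes an HMG-box protein needed for transposon silencing, had a peak of score 866 and fold enrichment 12.7 at chr1:168168394-168169104, rank 102, whose summit fell in the 5′ UTR 73 bp downstream of the TSS. Pld6, which encodes the mitochondrial surface protein MitoPLD that matures piRNA precursors, had a peak of score 105 and fold enrichment 3.91 at chr11:59600502-59601334. Its summit lay 30 bp downstream of a TSS, in Pld6 coding sequence, and its score was above 56.4% of bound protein-coding genes. Gtsf1, which encodes a zinc finger partner of PIWI proteins, had the weakest peak, of score 39 and fold enrichment 3.41 at chr15:103260604-103260929. Its score was above 17.2% of WT peaks, and its −log10 q of 3.98 compares with 146 for Ddx4. Asz1, which encodes the GASZ scaffold of mitochondria-associated germ granules, had no peak at its 5 TSSs, and the nearest WT midpoint was 234428 bp away in an intron of St7 with a score of 57.

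All 7 peaks spanned an annotated TSS of their gene, with 3 summits downstream and 4 upstream of it. How often other WT promoter peaks span a TSS, and the side of their summits, are not given here. These counts therefore have no background. The largest distance from a midpoint to a TSS was 245 bp (Piwil2), and the member closest to the 1 kb limit on its outer side was Piwil4 at 10696 bp, so no member lay near the limit. The body of each bound gene held 1 WT peak, the promoter peak itself, and the bodies of the 3 unbound genes held 0. No share over other genes is given for gene-body peaks, so these counts have no background either. Peaks were 326 bp (Gtsf1) to 949 bp (Piwil2) wide with a median of 826 bp, against 540 bp over the WT promoter peaks of protein-coding genes. The 5 peaks above 700 bp were those of Piwil2, Ddx4, Pld6, Mov10l1 and Mael.

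**Figure D2:**
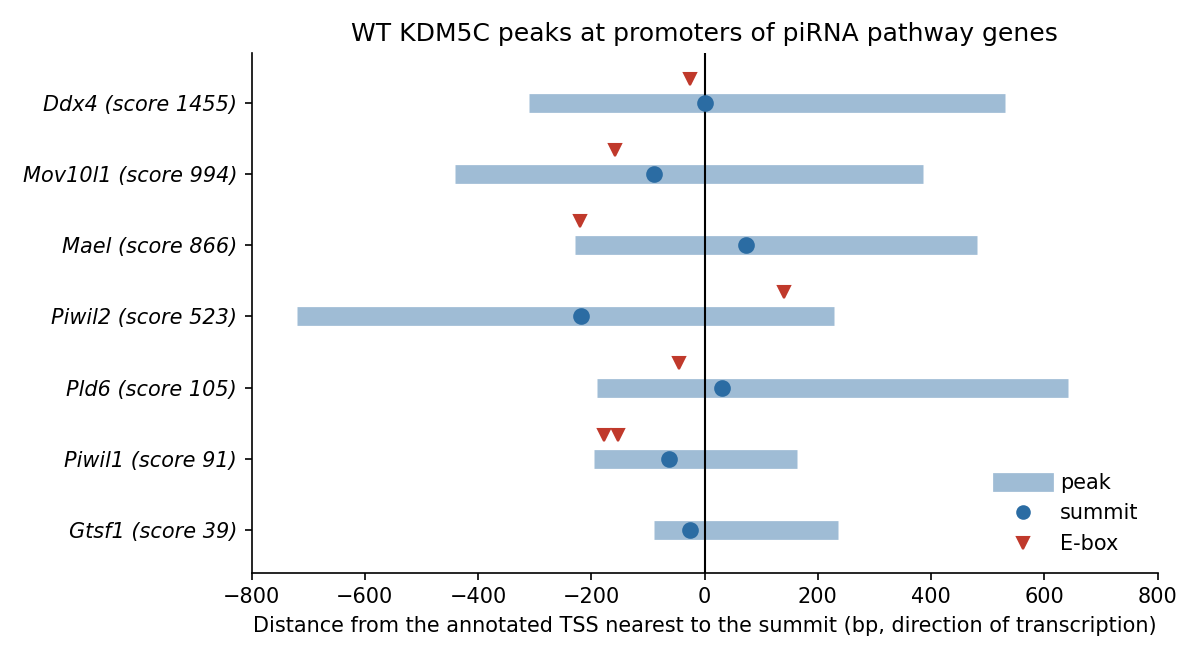
Extent of the 7 WT promoter peaks (bars), their summits (circles) and their E-boxes (triangles), against distance in bp from the annotated TSS nearest to the summit, read in the direction of transcription. Every bar crosses the TSS, the summits lie within 219 bp of it, and 6 of the 7 E-boxes lie upstream of it. How often other WT promoter peaks cross a TSS, and the side of their E-boxes, are not shown.

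Short reads that match more than 1 place in the genome were discarded by the authors, so a promoter with repeated sequence could lack a peak for that reason. Of the 1001 windows of 50 bases taken around each TSS, 100% were unique in mm9 at Piwil4, Asz1 and Mov10, the genes without a peak. The same held at the other members except Piwil2 (98.0%) and the internal Mov10l1 TSS at 88850851 (98.5%). Only exact matches were counted, whereas the alignment allowed up to 2 mismatches.

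None of the 7 WT peaks overlapped a KO peak, and 0 of the 10 genes had a KO promoter peak, against 0.0939% of protein-coding genes (21 of 22367). The nearest KO peak was 838186 bp from the Pld6 peak, and farther from the Piwil1, Mov10l1, Gtsf1 and Ddx4 peaks. For Mael and Piwil2 the KO list held no peak on the same chromosome. The KO share of all genes is itself close to 0, so the absence of KO peaks is near the background and describes the KO list more than the members. By the methods the KO list rests on a single sample and the WT list on replicates, while a supplementary read count names more than 1 KO replicate. The part of replicate number in the KO count was not tested.

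The promoters were not uniformly rich in CpG. A gene was counted as CpG-rich when, over 500 bp on either side of any of its TSSs, the observed/expected CpG ratio reached 0.6 and the GC content 50%. Among protein-coding genes with such a TSS, 43.5% had a WT peak (4764 of 10940), and among those without, 5.2% did (594 of 11427). The 5 CpG-rich germline members were Ddx4, Mael, Pld6, Asz1 and Mov10l1, of which all but Asz1 had a peak. The 4 members that were not CpG-rich were Piwil1, Piwil2, Gtsf1 and Piwil4, of which all but Piwil4 had a peak. Piwil2, with a highest ratio of 0.441 around its TSS, had a score of 523, and Gtsf1, with a nearly equal ratio of 0.439, had a score of 39. Mov10l1 (0.604), Asz1 (0.609) and Mov10 (0.63) had nearly equal ratios too, of which Mov10l1 scored 994 and the other genes had no peak. Over the 9 germline members, Ddx4 had both the highest ratio around a TSS (0.746) and the highest score. Among those with a peak, Gtsf1 had the lowest such ratio and the lowest score. Piwil4, with no peak, had the lowest ratio of all (0.419). The ratios of the others were 0.689 for Mael, 0.674 for Pld6 and 0.468 for Piwil1.

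**Figure D3:**
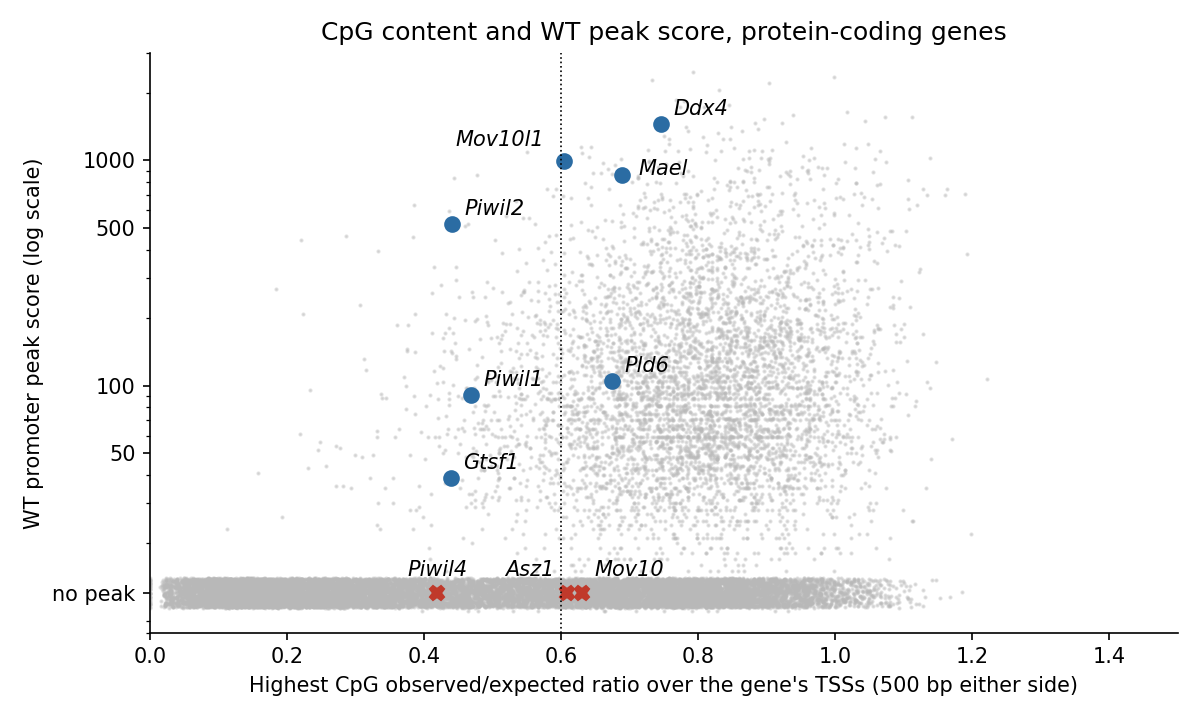
Score of the strongest WT promoter peak (vertical, log scale; genes with no peak are drawn in a band at the bottom) against the highest ratio of observed to expected CpG around a TSS (horizontal), for all protein-coding genes (grey), members with a peak (blue) and members without (red crosses). The dotted line is the ratio of 0.6; Piwil2, Piwil1 and Gtsf1 lie left of it with scores of 523, 91 and 39, and Asz1 and Mov10 lie right of it with no peak.

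Within the called peaks themselves the CpG ratio ran from 0.472 (Piwil2) and 0.565 (Piwil1) to 0.797 (Ddx4). The median was 0.654, against 0.83 over the WT promoter peaks of protein-coding genes. The median GC content, 65.4%, was close to the 65.9% of that background. The 5 peaks other than those of Piwil2 and Piwil1 met both CpG limits. They included the Gtsf1 peak, with a ratio of 0.669 inside it against a highest ratio of 0.439 around a Gtsf1 TSS.

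In the 300 bp centred on the summit, 4 of the 7 members held an E-box (Ddx4, Mov10l1, Piwil1 and Pld6). The share over all 5064 WT promoter peaks was 18.9%. In 300 bp centred on the TSS instead, 3 members held an E-box. The share over such windows at TSSs of protein-coding genes, with or without a peak, was 6.76%. The 4 members with an E-box at the summit held 5 E-boxes there, all upstream of both summit and TSS. The side on which E-boxes lie in other WT promoter peaks is not given here, so this placement has no background. In Ddx4 the E-box lay 27 bp upstream of the summit, in Mov10l1 69 bp, in Pld6 75 bp, and in Piwil1 114 and 89 bp. Over the whole peaks, 6 members held 7 E-boxes, and Gtsf1, the weakest peak, held none. The added genes were Mael, whose E-box lay 293 bp upstream of the summit at the edge of the peak, and Piwil2, whose E-box lay 140 bp downstream of the TSS. A longer stretch of sequence has more room for a match, and 27.6% of all WT promoter peaks and 35.6% of the 893 that were 700 to 950 bp wide held an E-box somewhere. A motif match describes the letters and not binding by a factor.

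The E2F motif was found in 1 member, Ddx4, within 300 bp of sequence at the summit, 134 bp upstream of it, against 13.3% of WT promoter peaks. The whole Ddx4 peak held a further match 185 bp downstream of the summit. The T-box motif was found in 0 members within 300 bp, against 3.93% of WT promoter peaks, and in the whole Ddx4 peak once, 229 bp downstream of the summit. Over whole peaks the E2F motif was found in 21.6% of WT promoter peaks and the T-box motif in 7.86%, or 29.1% and 9.85% of those 700 to 950 bp wide, the class of the Ddx4 peak (842 bp).

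For each member the nearest protein-coding gene on either side was examined, which gave 20 distinct neighbours. Of these 5 had a WT promoter peak (25.0%), close to the 24.0% of all protein-coding genes, and none shared a peak with a member. They were Slc39a14 (score 160) and Polr3d (306) beside Piwil2, Slc38a9 (188) beside Ddx4, Ildr2 (53) beside Mael, and Fut4 (94) beside Piwil4. The neighbours of Mov10l1 (Mlc1 and Panx2), Pld6 (Mprip and Flcn), Piwil1 (Fzd10 and Rimbp2) and Gtsf1 (Itga5 and BC048502) had no peak. Nor did Gpa33 beside Mael, Il31ra beside Ddx4, Amotl1 beside Piwil4, Wnt2 and Cftr beside Asz1, or Rhoc and Capza1 beside Mov10. The next WT midpoint beyond the promoter peak was 8430 bp from a Ddx4 TSS and 119728 bp from a Mov10l1 TSS, the nearest and farthest of the 7.

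The rest of the pathway was counted in the same way. These genes were chosen for function in the pathway and not for expression limited to germ cells. Of 15 further piRNA pathway genes in the annotation, 8 had a WT promoter peak (53.3%), with scores from 67 to 877. Their median was 246, and 4 were in the top 10%. The lowest of the 8 scores were those of Hsp90aa1 (71) and Wdr77 (67). The strongest were Fkbp6 (score 877), a germ granule cochaperone, Henmt1 (794, annotated as 4921515J06Rik), the methyltransferase of piRNA 3′ ends, and Gpat2 (456), a mitochondrial acyltransferase needed for piRNA production. Those without a peak were Spocd1, which couples PIWI to DNA methylation, Dnmt3l, the cofactor of that methylation in germ cells, Morc1, Mybl1, the transcription factor of pachytene piRNA genes, Prmt5, which methylates arginines of PIWI proteins, and the Gtsf1 relatives Gtsf1l and Gtsf2 (annotated as BC048502). The nearest WT midpoint to a Dnmt3l TSS lay just outside the limit, at 1124 bp, in a peak of score 59. The share of all protein-coding genes with a peak was 24.0%, and 11.6% of bound genes were in the top 10%. In the not CpG-rich class 2 of 7 of these genes had a peak, against 5.2% of such protein-coding genes, and in the CpG-rich class 6 of 8 did, against 43.5%.

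Tudor domain proteins bind methylated arginines of PIWI proteins and assemble germ granules with them. All 9 germline Tudor domain genes examined had a WT promoter peak, against 24.0% of protein-coding genes, with scores from 50 to 937 around a median of 209. They were 6 of 6 CpG-rich genes, against 43.5% in that class, and 3 of 3 that were not CpG-rich, against 5.2%. The strongest were Stk31 (937), Tdrd1 (874) and Tdrkh (684), and 4 were in the top 10%, against 11.6% of bound protein-coding genes. Tdrkh was also the sole gene of all lists with a KO promoter peak, of score 12. An E-box lay within the 300 bp at the summit in 5 of these 9 genes and in 3 of the 8 bound genes of the further pathway list, against 18.9% of WT promoter peaks.

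Relatives of the members that most cells express were counted as a contrast. These were the 4 Argonaute genes of the microRNA pathway, the RNA helicase genes Ddx3x, Ddx6, Upf1 and Helz, and the phospholipase D genes Pld1, Pld2 and Pld3. All 11 were CpG-rich, and 2 of them (18.2%) had a WT promoter peak, against the 43.5% of CpG-rich protein-coding genes given above. The 2 were Pld1 (score 83) and Ago3 (49, annotated as Eif2c3), neither in the top 10%. By family, the Argonaute-type genes with a peak were thus Piwil2, Piwil1 and Ago3 at scores of 523, 91 and 49, and the phospholipase D genes with a peak were Pld6 and Pld1 at 105 and 83. The gene lists were chosen with results of these data known, so the counts describe these lists and no more.

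**Figure D4:**
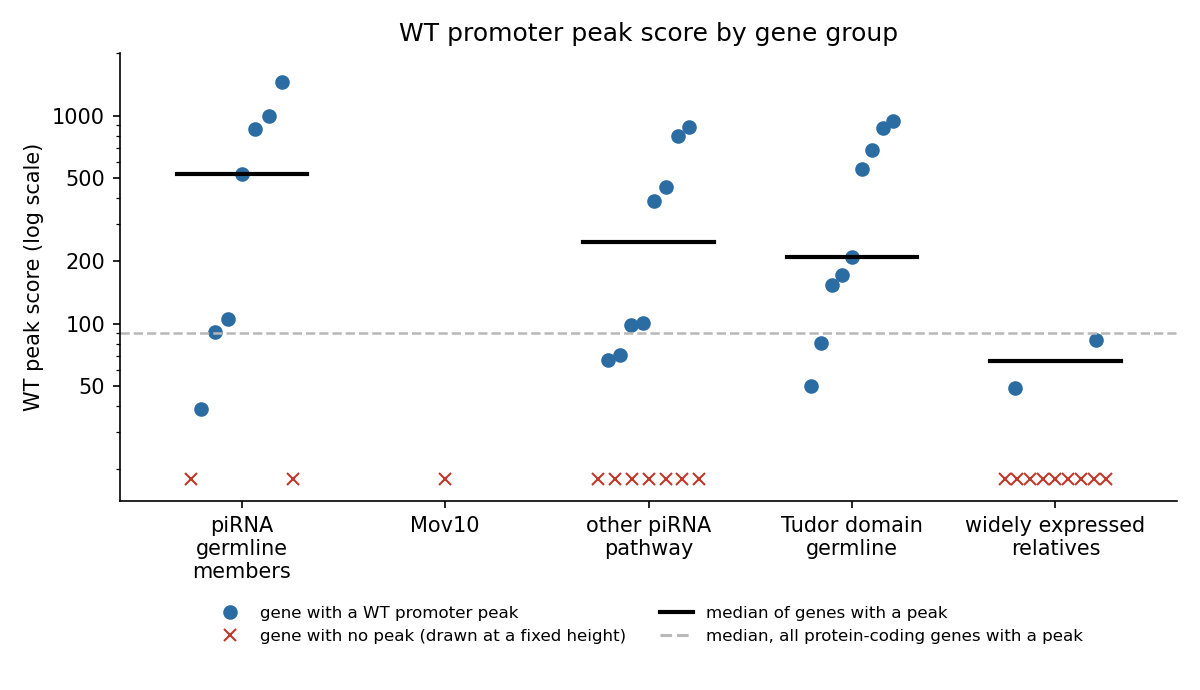
WT promoter peak score (vertical, log scale) of each gene in 5 groups; blue points are genes with a peak, red crosses at a fixed height are genes without, black bars are medians of genes with a peak, and the dashed line is the median of 90 over all bound protein-coding genes. The medians are 523 for the germline members, 246 for the other pathway genes and 209 for the Tudor domain genes, and the 2 bound relatives lie below the dashed line.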

How the data were processed

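KDM5C ChIP-Seq of 1 immunoprecipitated and 1 input sample per genotype was used. Samples were grouped from their titles. The authors mapped 50 bp single-end reads to mm9 with Bowtie (1.1.2 in the submitters' processing notes), kept uniquely mapped reads, and called peaks against input with MACS2 2.1.0.20140616 at a q-value below 0.1 and a fold enrichment above 1. The authors deposited for each peak a score, a ratio of immunoprecipitate to input (fold enrichment), a −log10 q-value and a summit offset. The score was checked in every row to be 10 times the −log10 q with decimals dropped. The largest q-value in the deposited lists was 0.0977 (WT) and 0.0948 (KO). Drosophila chromatin added to each ChIP was used by the authors for browser tracks and not for peak calls. The deposited −log10 of the p-value was not used.

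From these lists, peaks on assembled chromosomes were assigned to genes by midpoint, within 1 kb of any TSS of GENCODE M1 on NCBIM37, which is the mm9 assembly. The strongest peak stood for a gene with several. A WT peak counted as overlapping a KO peak from 1 shared bp on. Motifs were searched on both strands. No test between genotypes was made, since each has 1 list. The sources differ on replication: the methods give WT replicates and a single KO sample, a supplementary read count at Xist names more than 1 KO replicate, and the series text speaks of technical duplicates. The assignment and motif search were tested on simulated data and recovered what was placed. Members and lists were chosen with earlier results of these data known. All 10 members and their nearest protein-coding neighbours were to be named, and of every other list the 3 highest scores and the genes without a peak. Hsp90aa1 and Wdr77 of the pathway list were named in addition. Btbd18, chosen for the pathway list, had no entry under that name in the annotation used and is not analysed here. Alternatives were other windows, summits in place of midpoints, the most upstream TSS alone, minimum scores and folds, and other motif windows. Python 3.11.15, NumPy 2.4.6, pandas 2.3.3 and Matplotlib 3.10.9 were used.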

Additional observations from a re-analysis of the deposited data

How the results depend on the processing

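The 9 results were recomputed to give 65 alternative values, of which 18 moved, 0 reversed and the other 47 stayed within tolerance, which was 1.5 times for a count, the binomial confidence interval for a share and no change for the median score. Counts that changed within it included Tudor domain genes (7 at a fold of at least 4 and at the WT median score), other pathway genes (6 at both) and members with an E-box (6 over the whole peak). The count of germline members with a WT peak stayed at 7 with windows of 500 bp, 2 kb and 5 kb, with summits and with the most upstream TSS. The KO count was 0 in the main setting and under every alternative run. A count of 0 could not fall under stricter settings, so those runs carry no information on it. At or above the WT 90th percentile of scores the germline count was 4, that of other pathway genes 4, of Tudor domain genes 4 and of relatives 0, the median germline score was 930, and 2.79% of protein-coding genes had a peak. At or above the WT median score the values were 6 germline members (Gtsf1 was lost), 1 relative, a median score of 694 and 13.0% of protein-coding genes. At a fold enrichment of at least 4 they were 5 germline members (Pld6 and Gtsf1 were lost), 1 relative, a median score of 866 and 10.5%. Under the minimum scores the rise of the median score follows from the filter itself. The share of protein-coding genes was 21.8% at 500 bp, 25.0% at 2 kb, 27.0% at 5 kb and 22.0% with the most upstream TSS. In 100 bp at the summit, 1 member held an E-box and 0 an E2F motif. No share over all WT promoter peaks is given for that window, so these counts stand without a background. No paired analysis was possible because a genotype is 1 list of peaks and carries no replicate number. The lists hold neither read counts nor replicate values, so a gene without a peak was below the calling threshold in these lists and not shown to lack KDM5C.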
